A study of Mus musculus with 7 samples.

Results

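Csmd1, Csmd2 and Csmd3 are 3 paralogous genes that encode large transmembrane proteins built from CUB and sushi repeats. They were matched by gene symbol, 1 row for each, among the 55536 genes of the count tables, by a rule that uses no measured value, although the family was chosen with earlier results of these data known, and their transcripts were followed across the cell types of the mouse hippocampus in 24 wells of single nuclei. The nuclei came from 4 groups of mice that were 10 months old, with 6 wells in each group, 3 from females and 3 from males. One pair of groups was wild type (WT) and the other pair carried the Arctic48 transgene (Arc), a human amyloid precursor protein gene with the Swedish, Indiana and Arctic mutations, kept hemizygous on a C57BL6/J background. The promoter that drives it is not given in the sources used here. Mice of each genotype drank plain water (WT-veh and Arc-veh) or water with PMX205 at 20 μg/ml for 12 weeks (WT-PMX and Arc-PMX). That duration is from the labels, and the ages in the study's text make it somewhat shorter. PMX205 is a cyclic hexapeptide that blocks C5aR1, the receptor for the complement fragment C5a. All mice, controls included, were housed singly during the treatment, and all were perfused with a buffered salt solution. The sources differ on whether the perfusate held the transcription inhibitors actinomycin D and triptolide, which the labels place there and the study's methods only in the solution for isolating microglia. Each well held nuclei of hippocampal tissue from 1 mouse.

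Complement is a cascade of plasma and tissue proteins in which C1q, C4 and C3 tag a surface, and C5 is then cleaved to the inflammatory fragment C5a and to the fragment that starts the membrane attack complex. Cells limit the cascade with regulators that carry sushi domains, such as CD55 and factor H, and CSMD1 belongs with these, since it promotes the degradation of C3b and C4b by factor I. In the brain, complement proteins mark synapses for removal by microglia, and CSMD1 is known from neurons, where it opposes that marking. CSMD2 is known as a synaptic protein of dendrites, and CSMD3 from studies of dendrite growth. A role in complement is less well established for these paralogues.

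The 3 genes are among the long genes of the genome. On the GRCm38 (mm10) assembly, Csmd1 (ENSMUSG00000060924.15) lies on the minus strand of chromosome 8, from 15892537 to 17535586, and spans 1643 kb. Csmd2 (ENSMUSG00000028804.20) lies on the plus strand of chromosome 4, from 127987857 to 128567656, and spans 580 kb. Csmd3 (ENSMUSG00000022311.15) lies on the minus strand of chromosome 15, from 47580637 to 48792063, and spans 1211 kb. Their exons together cover only 19.0, 17.1 and 16.9 kb, so nearly all of each gene is intron. Nuclei hold unspliced RNA, and 1866618 transcripts of Csmd1, 224437 of Csmd2 and 445886 of Csmd3 were counted in the nuclei that were kept. No stretch of 50 bases was shared between the annotated spliced transcripts of any pair of the 3 genes. The antisense gene Csmd2os lies within Csmd2. It held 800 transcripts, and all genes that overlap Csmd2 together held 0.362% as many as Csmd2. How strand was used in the counting is not given in the sources used here, so reads of such partners cannot be told apart with certainty.

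The wells held 1150 to 3111 nuclei and 4389302 to 30001277 transcripts each, and 43885 nuclei were kept. Among 45138 nuclei before doublets were removed, 4080 of 40769 barcode combinations were found in more than 1 of the 7 sublibraries (8449 nuclei), and none was repeated within a sublibrary. A nucleus was therefore identified by sublibrary and barcode together. The nuclei fell into 38 clusters, from which 42754 nuclei were named from marker genes, and the Csmd genes were used neither to form the clusters nor to name them. The names are therefore those of types alike in markers ("astrocyte-like" and so on), although the suffix is left out in what follows after first use. Labels and counts matched for sex, with Xist at 410 to 1087 CPM in the 12 female wells and at 1.51 to 7.20 CPM in the 12 male wells. The App level in neurons was 451 to 575 CPM in WT wells and 550 to 795 CPM in Arc wells, and 2 WT wells lay above the lowest Arc well, so that this mouse and human signal did not separate the genotypes fully. The study left out a WT sample that proved to carry the transgene, but which sample it was is not given in the sources used here. All wells were therefore kept, and no WT well held 10 nuclei of the astrocyte cluster that was frequent in Arc wells. A level is given as CPM, the transcripts of a gene scaled to a fixed total over all nuclei of a type in a well, for wells with at least 10 nuclei of that type. In microglia-like nuclei 3 wells fell short of this, WT-veh F3, WT-veh M3 and WT-PMX F3 (F and M for sex, with the replicate number), with 0, 3 and 9 nuclei. On this scale a lower level means a smaller share of the RNA, not a known number of molecules per cell.

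Csmd1 was at its highest in neuron-like nuclei and in oligodendrocyte precursor-like nuclei (OPCs, the dividing precursors of the myelinating cells). Its mean level over 24 wells was 7495 ± 551 CPM (SD) in neurons whose clusters passed the naming limits for no single field or for interneurons ("other neurons"), 7000 ± 771 in OPCs, 6641 ± 389 in CA3 pyramidal-like neurons, 6303 ± 387 in dentate granule-like neurons and 6030 ± 308 in CA1 pyramidal-like neurons. The other neurons were a mixed class. One of their clusters held the CA1 marker Fibcd1 at 70.8 CPM, where the CA1 cluster held 69.3, another held the CA3 marker Grik4 at 1367 CPM and was shallow, with a median of 716 transcripts, and yet another held the dentate marker Prox1 at 192 CPM. Ependymal-like nuclei, the ciliated lining of the ventricles, followed with 5124 ± 644 CPM in 13 wells, and interneuron-like nuclei with 4092 ± 468 CPM in 24. Below a mean step within wells of 1.06 in log2 (SD 1.85, n = 17) lay the endothelial-like (2799 ± 1366, n = 17), pericyte-like (1771 ± 1498, n = 13), fibroblast-like (1512 ± 1369, n = 12) and astrocyte-like (1319 ± 667, n = 24) nuclei. That step includes endothelial wells at 71.7 and 83.1 CPM, and the medians were 4115 CPM in interneurons and 2957 CPM in endothelial nuclei. Microglia had 447 ± 222 CPM in 21 wells, oligodendrocyte-like nuclei 318 ± 119 in 24, and choroid plexus-like nuclei 151 ± 102 in 12.

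**Figure D1:**
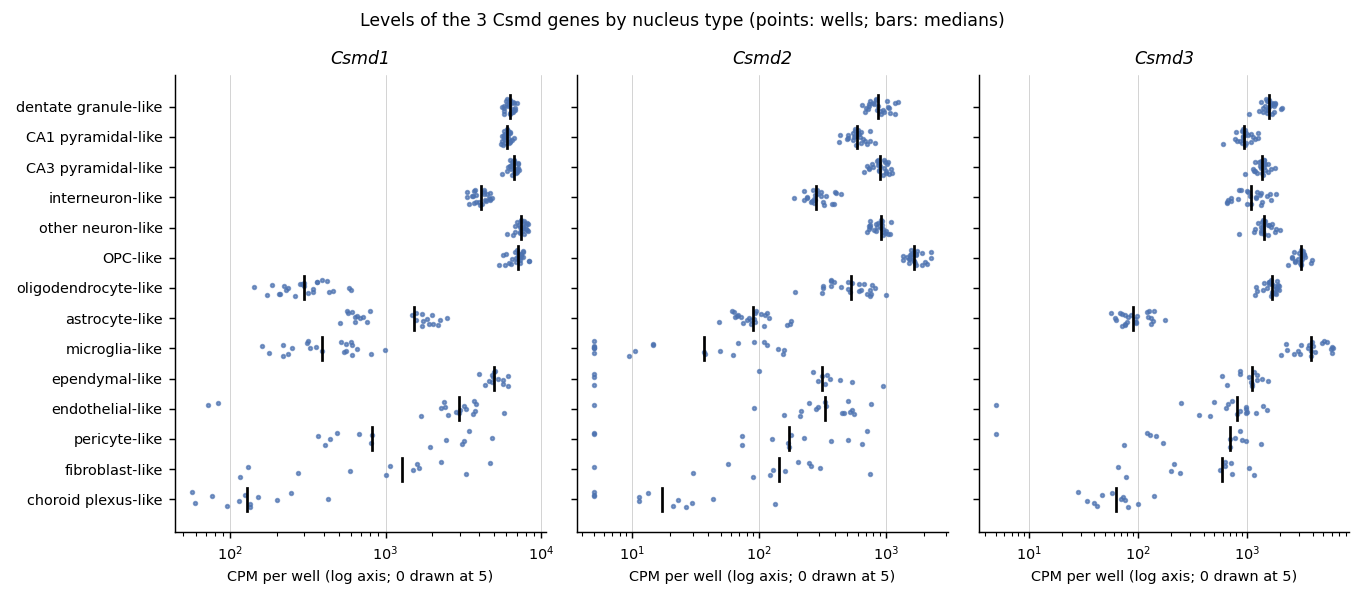
Levels of Csmd1, Csmd2 and Csmd3 in 14 cell types, in CPM on a log axis, with a point for each well of at least 10 nuclei of the type, a bar at the median, and wells without a transcript drawn at 5. Csmd1 is high in all neuronal types, OPCs and ependymal nuclei, Csmd2 is highest in OPCs, and Csmd3 is highest in microglia and OPCs.

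Types of 1 well come from 1 mouse, so neighbours in each order were compared within wells, by a two-sided permutation test of the paired differences in log2(CPM + 1), adjusted over the 91 pairs of types of a gene. For Csmd1, 8 of 12 neighbouring pairs differed, and 84 of all 91 pairs. Cajal-Retzius-like nuclei stood in each order but had too few wells for the test. The types on either side of them were therefore not counted as neighbours. Other neurons exceeded OPCs by 0.10 in log2 (higher in 16 of 24 wells, permutation adjusted p = 0.00438), but in the WT-veh wells alone OPCs came first. When each nucleus was named by its own highest marker score, fibroblasts came first and 5 of 11 neighbouring pairs kept their direction. That setting had no class of other neurons and no limits on the score, so the place of other neurons was not compared in it. The order of the remaining types for Csmd1 depends on how nuclei were named. OPCs and CA3 neurons did not differ beyond their spread (0.07, higher in 18 of 24 wells, permutation adjusted p = 0.0604). CA3 neurons exceeded dentate granule neurons by 0.08 in 22 of 24 wells, and these exceeded CA1 neurons by 0.06 in 21 of 24 wells, each with the smallest value the permutations can give (raw p = 1e-05, adjusted 2.94e-05). The order of endothelial, pericyte, astrocyte and fibroblast nuclei was not resolved, with permutation adjusted p from 0.588 to 0.906 between neighbours.

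Csmd2 had a different order, with OPCs alone at the top. OPCs held 1726 ± 252 CPM (n = 24), above CA3 neurons (912 ± 125) by 0.92 in log2 in 24 of 24 wells (permutation adjusted p = 2.94e-05, the smallest possible). CA3, dentate granule (901 ± 170) and other neurons (892 ± 114) could not be separated, with permutation adjusted p of 0.316 and 0.972. CA1 neurons held 603 ± 98.3 CPM, oligodendrocytes 553 ± 202, a difference that the permutation test did not separate (0.21 in log2, adjusted p = 0.0826). Interneurons, with 300 ± 65.1 CPM, lay below oligodendrocytes in 23 of 24 wells (0.81, permutation adjusted p = 2.94e-05). At the low end were astrocytes (96.3 ± 35.1, n = 24), microglia (51.3 ± 55.8, with 6 of 21 wells at 0) and choroid plexus (26.2 ± 36.6, 3 of 12 wells at 0). Cajal-Retzius-like nuclei reached 10 nuclei in 2 wells only, where Csmd2 was at 663 and 683 CPM, Csmd1 at 210 and 309 CPM and Csmd3 at 0 and 133 CPM.

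Csmd3 was highest in microglia, the resident immune cells of the brain, with 4049 ± 1304 CPM (n = 21, lowest 2063, median 3876, highest 6074). OPCs followed with 3092 ± 366 CPM, lower than microglia by 0.31 in log2 (microglia higher in 14 of 21 wells, permutation adjusted p = 0.00432). The lead of microglia was not stable, since OPCs were first with scaling factors fitted over the types of a well, and also in the Arc-veh wells alone. Oligodendrocytes held 1657 ± 232 CPM, 0.90 below OPCs in log2 in 24 of 24 wells (permutation adjusted p = 3.25e-05, the smallest possible), and were not separable from dentate granule neurons (1598 ± 230, permutation adjusted p = 0.17). Other neurons had 1454 ± 241 CPM, CA3 neurons 1370 ± 180, interneurons 1117 ± 340, ependymal nuclei 1066 ± 271 (n = 13) and CA1 neurons 964 ± 153. Astrocytes had the least among the large classes, with 97.9 ± 31.4 CPM, and still exceeded choroid plexus nuclei (66.0 ± 32.3) in 11 of 12 wells (0.69 in log2, permutation adjusted p = 0.00838).

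Levels of different genes were compared per kb of gene span, since long introns gather more counts. On this scale Csmd1 was the highest of the 3 in 12 of 15 types. In OPCs the levels were 4.26 CPM per kb for Csmd1, 2.98 for Csmd2 and 2.55 for Csmd3. In dentate granule neurons they were 3.84, 1.55 and 1.32, and in astrocytes 0.803, 0.166 and 0.0808. Csmd3 led in microglia, with 3.34 CPM per kb against 0.272 for Csmd1 and 0.0885 for Csmd2. It led also in oligodendrocytes, with 1.37 against 0.194 and 0.954. In the few Cajal-Retzius nuclei Csmd2 led, with 1.16 CPM per kb. The order of Csmd2 and Csmd3 depends on this scale. Per kb of exon, Csmd3 stood above Csmd2 in OPCs (183 against 101 CPM per kb), in dentate granule neurons (94.7 against 52.8) and in astrocytes (5.80 against 5.64).

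Free RNA from neurons can be barcoded along with other nuclei, and the level of 11 neuronal markers (Rbfox3, Snap25, Syt1, Snhg11, Meg3, Grin1, Grin2a, Camk2a, Slc17a7, Ryr2 and Kcnq5) was used to size it. In each well, the Csmd level that would go with the summed level of these markers was set beside the measured one. The ratio of Csmd to markers was that of the well's barcodes with fewer than 100 transcripts. These barcodes were taken as the pool of free RNA, and they may hold RNA of other cells than neurons too. In OPCs the measured levels were 12.6 times (Csmd1), 26.2 times (Csmd2) and 21.6 times (Csmd3) that value, and in 24 of 24 wells above it. In astrocytes the ratios were 5.76, 3.61 and 1.65, also above in 24 of 24 wells. In oligodendrocytes Csmd2 and Csmd3 stood at 15.3 and 20.5 times, but Csmd1 at 1.02 times. In microglia Csmd3 stood at 30.3 times, while Csmd1 and Csmd2 stood at 0.870 and 0.837 times. Endothelial nuclei were at 1.10 to 1.18 times for the 3 genes, and choroid plexus nuclei at 0.612 to 1.06. Pericytes were at 1.13 to 1.35 times and fibroblasts at 1.22 to 1.66 times. Ependymal nuclei, with a marker sum of 9343 CPM, were at 2.01 times for Csmd1, above the value in 13 of 13 wells, at 1.04 times for Csmd2 and at 1.59 times for Csmd3. The Csmd1 of oligodendrocytes, microglia, endothelial and choroid plexus nuclei was therefore no higher than, or close to, the level that went with the neuronal markers in those barcodes.

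The share of nuclei with at least 1 transcript was taken with each nucleus thinned to 500 transcripts, which removes differences in depth. Choroid plexus nuclei, an epithelium where these genes were at or near their lowest, gave 6.66% (Csmd1), 1.11% (Csmd2) and 2.06% (Csmd3) of 631 nuclei. Their summed neuronal markers (927 CPM) were below those of oligodendrocytes (1120), microglia (1871), OPCs (2004) and endothelial nuclei (9073), so their shares do not measure the free RNA in those types. Of 1349 OPCs, 95.0% (95% Clopper-Pearson interval 93.7 to 96.1) held Csmd1, 56.7% (54.0 to 59.4) Csmd2 and 77.1% (74.8 to 79.3) Csmd3. Of 27934 neurons, 92.6%, 29.2% and 47.8% did. Csmd3 was found in 69.8% (67.4 to 72.1) of 1484 microglia, where Csmd2 was found in 1.82% (1.20 to 2.64). Oligodendrocytes stood at 13.7%, 19.2% and 55.8%, and astrocytes at 31.5%, 3.53% and 4.41%. Csmd1 was found in 15.4% of microglia (13.6 to 17.4) and in 27.4% of 427 endothelial nuclei (23.2 to 31.9), above the choroid plexus share, in types whose neuronal marker sums were higher too. Without thinning, at median depths of 2335 transcripts in OPCs, 1005 in microglia and 3396 in choroid plexus, the shares for Csmd3 were 97.6%, 83.1% and 17.9%. These intervals cover counting error only. Thinning left out 42 neurons and 23 microglia with fewer transcripts.

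Neuronal clusters also differed among themselves. The interneuron cluster led by Kcnmb2, Kcnc2 and Nxph1, genes of interneurons from the medial ganglionic eminence, had 372 ± 106 CPM of Csmd3 over 24 wells, whereas the interneuron cluster led by Ano2 and Cpa6 had 1785 ± 371 over the 17 wells with at least 10 such nuclei. Csmd1 went the other way in these clusters, with 4719 ± 751 and 3450 ± 495 CPM. Among dentate granule neurons, the shallower and the deeper of the 2 large clusters, with median depths of 4424 and 8524 transcripts per nucleus, held Csmd3 at 1450 ± 218 and 1728 ± 219 CPM and Csmd1 at 6313 ± 403 and 6284 ± 387. The clusters took unequal shares of the groups. Of the dentate granule neurons of a well, the shallower cluster held a median of 67.6% in WT-veh and 67.5% in WT-PMX, and 41.3% in both Arc groups. Of the interneurons of a well, the cluster led by Ano2 held a median of 17.4% in WT-veh (0.826 to 70.2 over wells), 34.4% in WT-PMX, 21.5% in Arc-veh (2.72 to 60.2) and 49.6% in Arc-PMX (21.8 to 61.9), with wide and overlapping ranges. Over all nuclei of a group its shares were 37.4%, 35.7%, 34.9% and 48.9% in the same order. These cluster values are descriptions, without a test.

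The genes whose pattern over 15 types was most like that of a member, by Pearson's r of the mean log2(CPM + 1) among 8235 genes of at least 50 CPM in their highest type, also differed between members. For Csmd1 they were Arpp21 (r = 0.94), Ak5, Sept3, Slc44a5 and Epha5 (each 0.93). For Csmd2 they were Dcc (0.95), the receptor for the guidance cue netrin, followed by Pak3 (0.94), Amph and 1700025G04Rik (0.93) and Elfn2 (0.92). For Csmd3 they were the receptor phosphatases Ptprj and Ptpro and the adaptor Tln2 (0.86), followed by Ppm1l (0.85) and Gnptab (0.84). Between the members themselves r was 0.62 for Csmd1 and Csmd2, 0.57 for Csmd1 and Csmd3, and 0.25 for Csmd2 and Csmd3. The types share wells, depth and free RNA, so these values describe likeness in these libraries only.

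The effect of the transgene was read from Arc-veh against WT-veh. A gene was called at an adjusted p under 0.05 in edgeR's quasi-likelihood test, fitted over all genes of a type with sex as a covariate. Across the 9 types with most nuclei (5 neuronal types, astrocytes, oligodendrocytes, OPCs and microglia), 3 of 26 tests of the members were called, where 1.99% of all gene tests were. Each call fell on a different gene in a different glial type: Csmd1 was higher in Arc astrocytes, Csmd2 was higher in Arc oligodendrocytes, and Csmd3 was lower in Arc microglia. Arc-PMX against WT-PMX, a comparison that shares no wells with the first and was added after the data were seen, called the same 3 tests in the same directions, against 1.82% of all gene tests. Both comparisons came from the same fit, so they share its estimates of spread and of the sex difference.

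**Figure D2:**
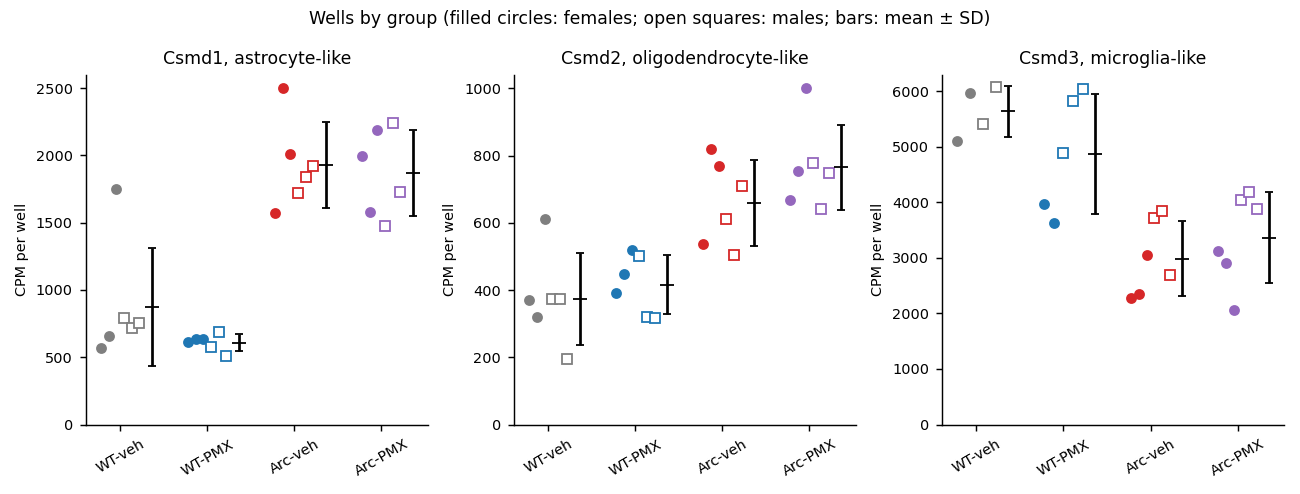
Levels in CPM by group of Csmd1 in astrocytes, Csmd2 in oligodendrocytes and Csmd3 in microglia, with filled circles for female wells, open squares for male wells and lines for mean ± SD. Means of Csmd1 and Csmd2 are higher and of Csmd3 lower in the Arc groups. On water the genotypes overlap through WT-veh F3, at 1752 CPM in astrocytes and 612 CPM in oligodendrocytes, and on PMX205 they overlap for Csmd3.

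In WT-veh astrocytes the Csmd1 level was 569, 655, 717, 755 and 793 CPM in wells F1, F2, M2, M3 and M1, and 1752 CPM in well F3. In Arc-veh astrocytes it was 1573, 1720, 1837, 1918, 2010 and 2498 CPM in wells F1, M1, M2, M3, F3 and F2. Every Arc-veh well but F1 and M1 exceeded every WT-veh well, and the groups overlapped only through WT-veh F3. The fold change was 1.15 in log2 (SE 0.16, edgeR adjusted p = 1.89e-06, n = 6 and 6), in a type where 7.61% of genes tested were called higher. In WT-veh F3, 1 nucleus held 107 of the 177 Csmd1 transcripts, and the level without it was 728 CPM. Without this well the difference was 1.41 in log2. On PMX205, the Arc astrocytes held 1474, 1581, 1727, 1994, 2192 and 2239 CPM, and the WT astrocytes 510, 574, 612, 635, 637 and 688 CPM. These groups did not overlap, and the difference was 1.59 (SE 0.16, edgeR adjusted p = 1.85e-09), against 7.72% of genes called higher.

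In WT-veh oligodendrocytes the Csmd2 level was 194, 318, 371, 372, 374 and 612 CPM in wells M3, F2, F1, M2, M1 and F3. In Arc-veh oligodendrocytes it was 504, 538, 611, 710, 770 and 820 CPM in wells M2, F1, M1, M3, F3 and F2. The lowest and the highest WT-veh values came from the wells with fewest oligodendrocytes, M3 with 28 nuclei and 4 Csmd2 transcripts and F3 with 15 nuclei and 8. The groups overlapped through F3 alone. The difference was 0.95 in log2 (SE 0.15, edgeR adjusted p = 7.22e-05, n = 6 and 6), in a type where 1.88% of genes were called higher, and it was 0.92 without those 2 wells. On PMX205 the level was 640 to 1001 CPM in Arc (median 751) and 317 to 519 CPM in WT (median 419), without overlap, a difference of 0.91 (SE 0.14, edgeR adjusted p = 3.35e-05), against 1.48% of genes called higher.

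Csmd3 in microglia was 5108, 5414, 5967 and 6074 CPM in the 4 WT-veh wells that held enough microglia. It was 2277, 2343, 2685, 3043, 3727 and 3848 CPM in the 6 Arc-veh wells, each lower than any WT-veh well. The difference was -0.89 in log2 (SE 0.16, edgeR adjusted p = 0.000126), with 4.89% of genes called lower in microglia. These WT-veh wells held 19 to 47 microglia each, and the Arc-veh wells 98 to 159. On PMX205 the level was 3621 to 6047 CPM in 5 WT wells (median 4897) and 2063 to 4183 CPM in 6 Arc wells (median 3500). These ranges overlapped, the difference was -0.47 (SE 0.15, edgeR adjusted p = 0.0361), and 4.58% of genes were called lower. With no filter on low counts the difference was -0.0699 (adjusted p = 0.958), in a fit where the median of all genes stood at 0.45, and on water it was -0.53 (adjusted p = 0.0475), with that median at 0.74. With the filter these medians were 0.00036 and 0.02. This call was lost in 10 of 21 fits that left out 1 well, among them those without Arc-PMX F3 (-0.37, adjusted p = 0.111) and without WT-PMX M2 (-0.40, adjusted p = 0.128), and also with the replicate number as a block (-0.47, adjusted p = 0.0569).

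Some neuronal markers were called in astrocytes, a type where the share of all genes called lower is not given here. In astrocytes, none of the 11 markers was at 0 in any group, and their summed level was 870 to 1266 CPM in WT-veh, 535 to 1180 in WT-PMX, 505 to 921 in Arc-veh and 469 to 1129 in Arc-PMX. Of 10 markers tested in astrocytes 3 were called lower in Arc-veh than in WT-veh (Syt1 by -0.88, Grin2a by -0.80 and Grin1 by -0.90 in log2) and none higher. In Arc-PMX against WT-PMX 1 of 10 was called lower, Camk2a (-0.80), and none higher. The part of free RNA in the Csmd1 difference was not tested by these values. In oligodendrocytes, again with none of 11 at 0, the sums were 612 to 1713 CPM in WT-veh, 618 to 1883 in WT-PMX, 730 to 1258 in Arc-veh and 563 to 2084 in Arc-PMX, and none of 9 markers tested was called in either arm. In microglia the sums were 1213 to 2707 CPM in WT-veh, 415 to 7081 in WT-PMX, 582 to 3079 in Arc-veh and 763 to 2091 in Arc-PMX, none of 7 was called in either arm, and Slc17a7 was at 0 in WT-PMX. When non-neuronal nuclei with more than 2 transcripts of these markers were left out, Csmd1 in astrocytes differed by 1.02 between Arc-veh and WT-veh (edgeR adjusted p = 4.46e-05), Csmd2 in oligodendrocytes by 0.92 (adjusted p = 0.000499) and Csmd3 in microglia by -0.91 (adjusted p = 6.87e-05). When each nucleus was instead named by its own highest marker score, in place of the name of its cluster, Csmd1 in astrocytes was still called on water (0.77, edgeR adjusted p = 0.0336) and on PMX205 (1.33, adjusted p = 0.000244). Csmd2 in oligodendrocytes was then not called (0.48, adjusted p = 0.0579, and 0.52, adjusted p = 0.0961), and neither was Csmd3 in microglia (-0.19, adjusted p = 0.498, and -0.19, adjusted p = 0.649).

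A list of 15 long and abundant neuronal genes was set beside the members for the same reason. In astrocytes 2 of the 15 were called higher in Arc-veh than in WT-veh, Kcnip4 (0.97) and Lrp1b (0.65), and 8 lower, with a list median of -0.37 where the median of all genes was 0.01. Of all genes tested in astrocytes 7.61% were called higher in this comparison. The share called lower in astrocytes is not given here, for this list or for the markers above. In oligodendrocytes 0 of 15 were called higher, where 1.88% of all genes were, and 3 lower. In microglia 1, Cntnap2, was called lower (-1.28), where 4.89% of all genes were. On PMX205, Kcnip4 (1.41) and Lrp1b (0.76) were called higher in Arc astrocytes, where 7.72% of all genes were, and 3 lower (Adgrb3, Grin2b and Ptprd). In oligodendrocytes 1 was called lower, Opcml (-0.48), and in microglia 2, Dlg2 (-1.70) and Rbfox1 (-1.07), where 4.58% of all genes in microglia were. The few long genes called in microglia, 1 on water and 2 on PMX205, had the direction of Csmd3. Their number was not tested against the share of all genes. Those called in oligodendrocytes, 3 and 1, had the direction opposite to Csmd2, and the share of all genes called lower there is not given here. In astrocytes 2 had the direction of Csmd1 and 8 the opposite on water, and 2 and 3 on PMX205. The part of neuronal RNA in the Csmd3 difference was not tested by this list.

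Clusters within a type took unequal shares of the groups. Astrocytes formed 3 clusters, and the one led by Gfap, Gpam and Osmr (cluster 11) held a median of 53.9% of the astrocytes of an Arc-veh well and 44.8% in Arc-PMX, but 0.803% in WT-veh and 1.68% in WT-PMX. Gfap encodes the filament protein that marks reactive astrocytes. Csmd1 in cluster 11 was 2579 ± 349 CPM in Arc-veh and 2572 ± 368 in Arc-PMX (n = 6 each). In the largest cluster, cluster 3, it was 682 ± 82.0 in WT-veh, 600 ± 59.3 in WT-PMX, 652 ± 150 in Arc-veh and 701 ± 230 in Arc-PMX. Within cluster 3 the difference between Arc-veh and WT-veh was -0.049 in log2 (edgeR adjusted p = 0.978) and that between Arc-PMX and WT-PMX 0.22 (adjusted p = 0.9). Within cluster 21, led by Aqp4 and Rfx4, the differences were 0.59 (adjusted p = 0.429, 4 and 6 wells) and 1.36 (adjusted p = 0.0166, 5 and 6 wells). Without cluster 11 they were 0.38 (adjusted p = 0.233) and 0.69 (adjusted p = 0.00588). The higher Csmd1 of Arc astrocytes on water was thus not seen within the cluster that held most WT astrocytes. The 45 WT nuclei of cluster 11, from 11 wells, held 1964 CPM when pooled, and 970 CPM without the nucleus of WT-veh F3 already named, against 2557 CPM (95% Poisson interval 2508 to 2606) in 1165 Arc nuclei. These pooled values carry counting error only.

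**Figure D3:**
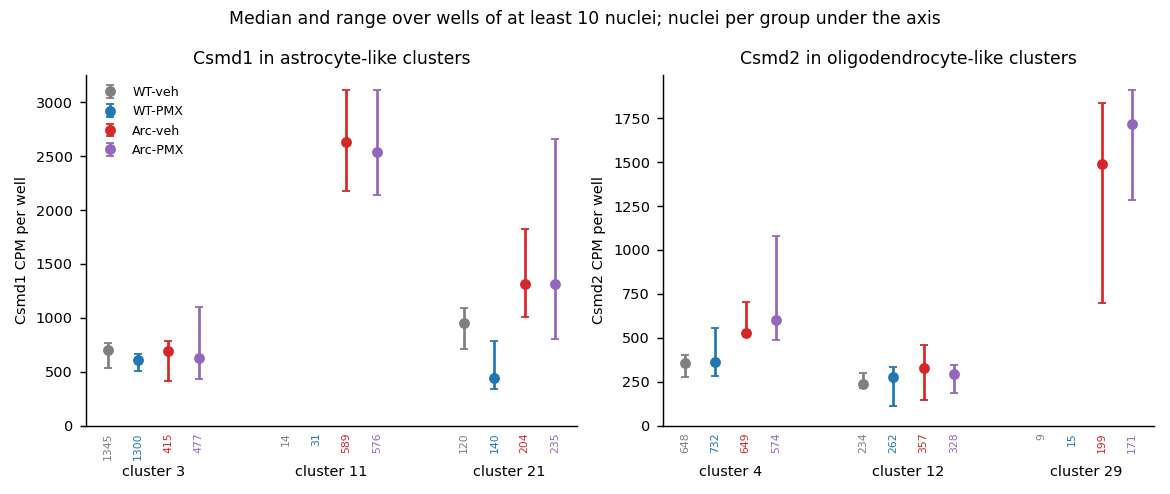
Csmd1 in the astrocyte clusters 3, 11 and 21 and Csmd2 in the oligodendrocyte clusters 4, 12 and 29, by group, as median and range over wells with at least 10 nuclei of the cluster, in CPM, with the nuclei of each group under the axis. No WT well held 10 nuclei of clusters 11 or 29, where Csmd1 and Csmd2 were highest.

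Oligodendrocytes showed a like division. Cluster 29, led by Cldn14 and Piezo2, held a median of 20.5% of the oligodendrocytes of an Arc-veh well and 14.1% in Arc-PMX, against 0.702% in WT-veh and 1.54% in WT-PMX. Csmd2 was 1393 ± 441 CPM in its Arc-veh nuclei and 1675 ± 241 in Arc-PMX (n = 6 each). The 24 WT nuclei of the cluster, from 11 wells, held 1557 CPM when pooled (95% Poisson interval 1298 to 1853), and the 370 Arc nuclei 1443 CPM (1363 to 1528). These pooled values too carry counting error only and do not compare mice. In Arc, 1 nucleus held 60 of the 1192 Csmd2 transcripts. In the large cluster 4, Csmd2 was 344 ± 46.8 CPM in WT-veh (n = 5), 403 ± 110 in WT-PMX, 565 ± 77.2 in Arc-veh and 674 ± 212 in Arc-PMX (n = 6 each). The difference within cluster 4 was 0.70 on water (edgeR adjusted p = 0.0622) and 0.73 on PMX205 (adjusted p = 0.0175). In cluster 12, led by Anln and Enpp6, it was 0.41 (adjusted p = 0.715) and 0.02 (adjusted p = 0.999). Without cluster 29 the differences were 0.56 (adjusted p = 0.141) and 0.50 (adjusted p = 0.225). Clusters 11 and 29 were found in these same nuclei, so their shares describe how the nuclei grouped and are given without a test. All microglia lay in 1 cluster, and a comparison within smaller clusters was not made.

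Neurons, where Csmd1 is best known, showed no called change. Between Arc-veh and WT-veh, the 5 neuronal types had log2 differences of 0.0048 to 0.087 for Csmd1 (SE up to 0.11), 0.03 to 0.22 for Csmd2 (SE up to 0.16) and -0.01 to 0.05 for Csmd3 (SE up to 0.20), with the lowest edgeR adjusted p at 0.531. In dentate granule neurons Csmd2 was 827 ± 96.2 CPM in WT-veh and 975 ± 199 in Arc-veh (0.22, edgeR adjusted p = 0.531). Between Arc-PMX and WT-PMX the differences were 0.03 to 0.23 for Csmd1, 0.04 to 0.22 for Csmd2 and 0.03 to 0.37 for Csmd3, none called. Csmd2 in dentate granule neurons differed by 0.22 there too (SE 0.11, edgeR adjusted p = 0.87). The groups overlapped for each of these genes.

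OPCs, where Csmd2 was highest, had no called change either. Csmd1 was 7666 ± 585 CPM in WT-veh, 7293 ± 375 in WT-PMX, 6790 ± 487 in Arc-veh and 6252 ± 809 in Arc-PMX (n = 6 each). The difference was -0.14 on water (SE 0.08, edgeR adjusted p = 0.601) and -0.22 on PMX205 (SE 0.08, adjusted p = 0.286). Csmd2 was 1634 ± 148 and 1860 ± 305 CPM in WT-veh and Arc-veh (0.21, adjusted p = 0.577), and Csmd3 was 3100 ± 175 and 3026 ± 218 CPM (-0.01, SE 0.10). In astrocytes the other 2 genes were low and did not pass the test, with Csmd2 at 85.7 ± 47.8 and 116 ± 32.7 CPM (0.55, edgeR adjusted p = 0.0971) and Csmd3 at 121 ± 19.2 and 84.0 ± 25.8 CPM (-0.56, adjusted p = 0.106). With the replicate number as a block, Csmd3 in astrocytes was called (-0.60, edgeR adjusted p = 0.0449). Csmd3 in oligodendrocytes was 1701 ± 258 and 1672 ± 177 CPM (0.02, SE 0.12).

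**Figure D4:**
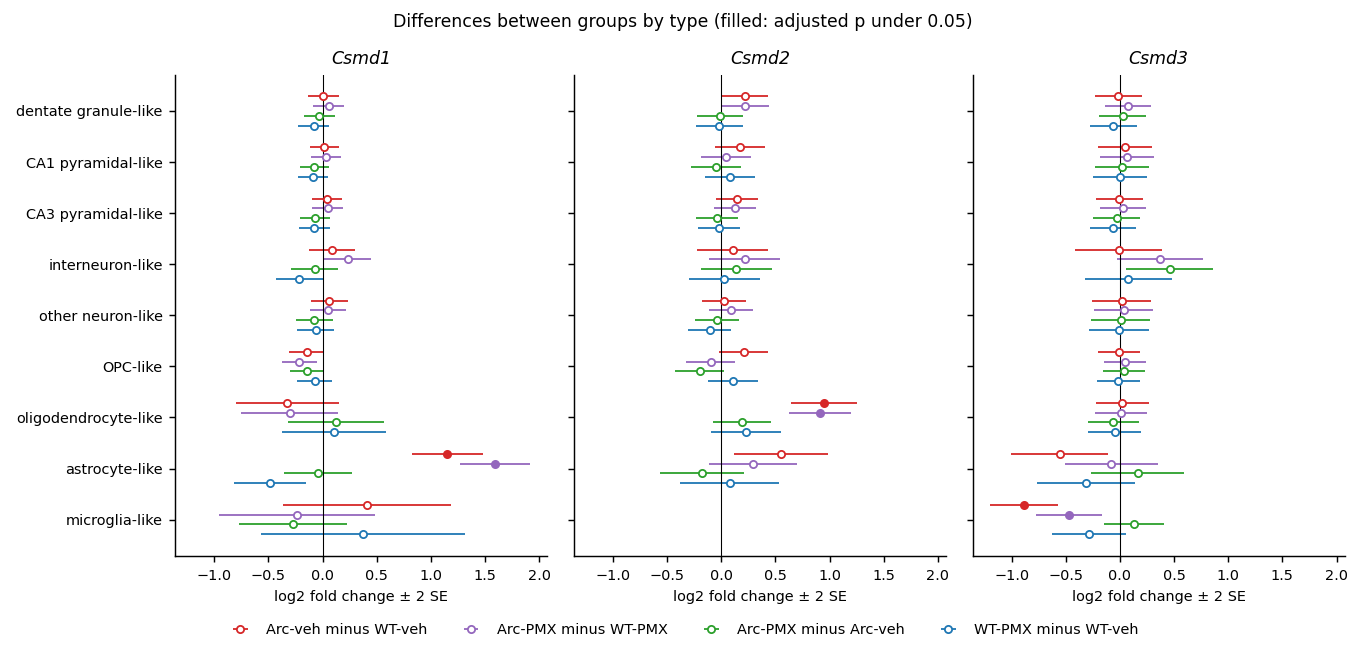
Differences in log2 with bars of 2 SE for the 3 genes in 9 cell types and 4 contrasts, where filled points have an edgeR adjusted p under 0.05. Filled points appear in the contrasts of Arc with WT, for Csmd1 in astrocytes, Csmd2 in oligodendrocytes and Csmd3 in microglia, and none appears in the contrasts of PMX205 with water. Csmd2 in microglia had too few counts to be tested.

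No member was called for PMX205. In Arc-PMX against Arc-veh 0 of 26 tests were called (1 at an unadjusted p under 0.05, as 2.74% of all gene tests were, and 0 by DESeq2), where 0.00729% of all gene tests were called. The 1 test was Csmd3 in interneurons, at 1006 ± 272 CPM in Arc-veh and 1381 ± 399 in Arc-PMX (0.46, SE 0.20, edgeR adjusted p = 0.868, overlapping wells). With no filter on low counts this test was called (0.47, edgeR adjusted p = 0.0401). The interneurons of both groups fell in the same 4 clusters in unequal proportions, with the Ano2 cluster, high in Csmd3, at 34.9% of all nuclei in Arc-veh and 48.9% in Arc-PMX. Within single interneuron clusters the difference was 0.27 in that cluster (SE 0.20, 3 and 6 wells), 0.40 in the Kcnmb2 cluster (SE 0.17), 0.03 in the cluster led by Adarb2 (SE 0.14) and 0.12 in that led by Pde11a (SE 0.17), and none was called by edgeR with the filter (adjusted p of 0.999 or more). In WT-PMX against WT-veh 0 of 26 were called (1 at an unadjusted p under 0.05, as 3.65% of all gene tests were, and 0 by DESeq2), and 0.0% of all gene tests. That 1 was Csmd1 in astrocytes, at 609 ± 61.1 CPM in WT-PMX and 873 ± 438 in WT-veh (-0.48, SE 0.17, edgeR adjusted p = 0.999), a comparison that includes the well WT-veh F3. That well held 1752 CPM and the other WT-veh wells 569 to 793, where the WT-PMX wells held 510 to 688. The PMX205 effect in Arc minus that in WT was called for 0 of 26 tests (0 at an unadjusted p under 0.05, and 0 by DESeq2) and for 0.0% of all gene tests. For the 3 changes seen with genotype, the PMX205 effect in Arc mice was -0.04 (SE 0.16) for Csmd1 in astrocytes, 0.19 (SE 0.13) for Csmd2 in oligodendrocytes and 0.13 (SE 0.14) for Csmd3 in microglia. In the 5 smaller types that could be fitted, 1 of 75 tests of the members over all contrasts was called, where 0.0896% of all gene tests were. Csmd1 in choroid plexus was at 59.2 and 76.3 CPM in 2 Arc-PMX wells and at 199 and 426 CPM in 2 WT-PMX wells (-2.11, SE 0.43, edgeR adjusted p = 0.00732), and the summed neuronal markers were at 392 and 829 CPM against 1034 and 3680 CPM in the same wells.

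Females and males were compared in the same fits. Here 2 of 26 tests of the members were called, against 0.238% of all gene tests, and both were in microglia, where 2.87% of genes were called. Csmd3 was lower on average in females in each of these 9 types, with log2 differences from -0.17 to -0.40. Of these, 8 had an unadjusted p under 0.05, as had 11 of the 26 tests of all members and 11.8% of all gene tests. In the smaller types the sign was not uniform, with 0.46 in endothelial, 0.95 in fibroblast and 0.97 in pericyte nuclei, -0.37 in ependymal and -0.82 in choroid plexus nuclei, none of them called. The 9 types share wells, so they are not independent. In microglia Csmd3 was 3443 ± 1268 CPM in 10 female wells (lowest 2063, median 3083, highest 5967) and 4600 ± 1119 in 11 male wells (lowest 2685, median 4183, highest 6074). The difference was -0.40 (SE 0.11, edgeR adjusted p = 0.0353), with overlapping ranges. In dentate granule neurons Csmd3 was 1468 ± 199 CPM in 12 female wells and 1729 ± 185 in 12 male wells (-0.27, SE 0.08, edgeR adjusted p = 0.127), and in OPCs 2910 ± 301 and 3275 ± 342 (-0.17, SE 0.07, adjusted p = 0.544). Of the dentate granule neurons of a well, the shallower cluster, lower in Csmd3, held a median of 66.3% in females and 49.6% in males. Among interneurons the Ano2 cluster, high in Csmd3, held a median of 29.02% in females and 41.6% in males. The ranges over wells overlapped widely, the shares were not tested by sex, and depth by sex is not given here. Within clusters the Csmd3 difference between the sexes was -0.28 and -0.23 in the 2 large dentate clusters. It was -0.27 to -0.35 in the 4 interneuron clusters, and none of these differences was called. The sign was the same with relative log expression factors, with DESeq2, which called 2 of the 9 (and 0.63% of all gene tests), with no filter on low counts, which called 5 (and 0.499% of all gene tests), and in all 213 fits that left out 1 well.

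Csmd1 was lower in females in 6 of 9 types and Csmd2 higher in females in 7 of 8, and whether this differs from Csmd3 was not tested. Csmd2 in dentate granule neurons was 986 CPM in females and 815 in males on average (0.23, SE 0.08, edgeR adjusted p = 0.178), and Csmd1 differed by -0.03 to -0.09 in the neuronal types. In microglia Csmd1 was 564 ± 223 CPM in females and 341 ± 165 in males (1.04, SE 0.22, edgeR adjusted p = 0.00494). The neuronal markers moved with it. None of 11 was at 0 in either sex, their sum was 999 to 7081 CPM in female wells and 415 to 2707 in male wells, and 2 of 7 tested were called higher in females (Rbfox3 by 2.09 and Ryr2 by 1.65), along with 8 of the 15 long neuronal genes. When microglia with more than 2 transcripts of the markers were left out, the difference in Csmd1 was 0.13 (edgeR adjusted p = 0.964). That for Csmd3 was then -0.39 (adjusted p = 0.24). The call of Csmd3 was also lost in 5 of 21 fits that left out 1 well, and with 4 of the 7 sublibraries left out in turn.

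**Figure D5:**
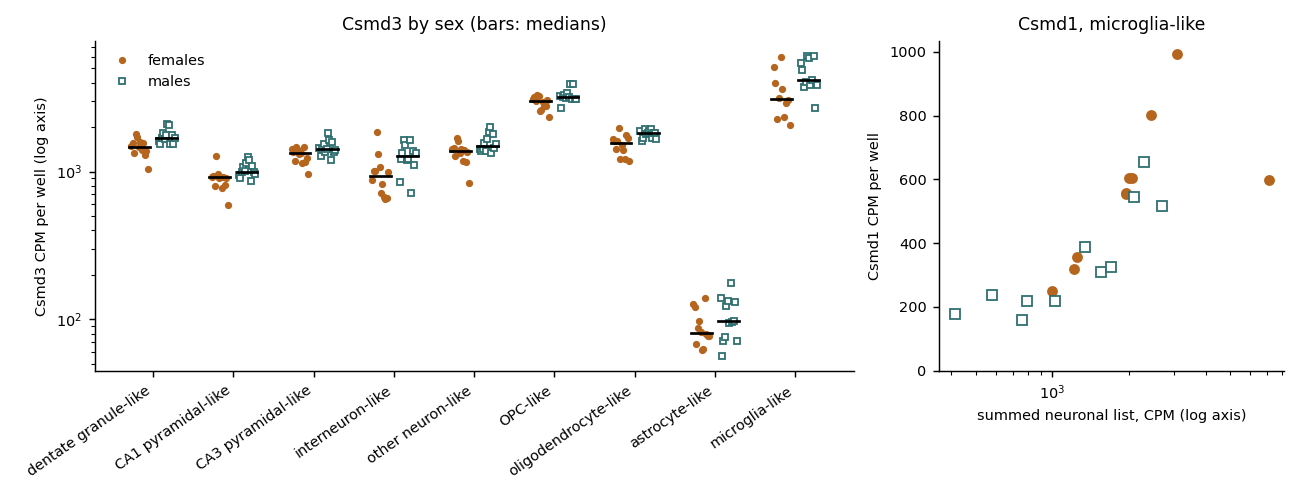
Left, Csmd3 in female and male wells of 9 cell types, in CPM on a log axis, with lines at the medians. Right, Csmd1 in microglia against the summed level of 11 neuronal markers in the same well, both in CPM. Csmd3 medians are lower in females across the types, with overlapping wells, and the microglial wells with most Csmd1 include female wells with high marker sums.

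The other complement genes were read from lists in the same 9 types. Of 17 tests of complement components, 5 were called higher in Arc-veh than in WT-veh, and 5 in Arc-PMX than in WT-PMX. Of all gene tests in the 9 types, 1.99% and 1.82% were called in these comparisons, in either direction. In astrocytes 7.61% and 7.72% of genes were called higher, and in oligodendrocytes 1.88% and 1.48%. The components called were C4b in astrocytes (2.39 and 1.67 in log2 on water and on PMX205), oligodendrocytes (4.06 and 3.71) and OPCs (4.77 and 4.08), C3 in astrocytes (3.39 and 3.77) and Masp1, a protease of the lectin pathway, in oligodendrocytes (2.75 and 2.86). C4b shares much of its sequence with C4a, so how reads were divided between them is uncertain. Of 50 tests of complement regulators, 2 were called higher on water, Serping1 (3.62), the C1 inhibitor, and Clu (0.74) in astrocytes, and 1 lower, Sez6l2 in oligodendrocytes (-0.57). On PMX205 1 of the 50 was called, Serping1 in astrocytes (3.68), near the share of all gene tests. Of 3 tests of complement receptors, 1 was called in each arm, Itgax in microglia (3.88, SE 0.88, and 6.77, SE 1.25). The difference between these values was not called, and the WT-PMX microglia numbered 119 in 5 wells. The filter on low counts can keep a gene through its Arc wells alone, and WT levels of these genes are not given here. The counts of tests thus cover only part of each list and can favour genes high in Arc. Of 11 tests of neuronal pentraxins, synaptic proteins that bind C1q, 0 were called in any contrast. No gene of these lists was called for PMX205 or for sex. In Arc astrocytes, Csmd1 was thus among the genes called higher, as were C4b, C3 and Serping1. In Arc oligodendrocytes Csmd2 was among them, as were C4b and Masp1. In Arc OPCs C4b was higher while no member passed the test. Whether these changes go together was not tested.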

How the data were processed

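Nuclei were barcoded by split-pool ligation (Evercode, Parse Biosciences) in 7 sublibraries that each held all 48 first-round wells, 24 of nuclei and 24 of CD11b-selected cells. The deposited tables hold raw transcript counts (unique molecules) per barcode and gene, which the authors made with the split-pipe pipeline (version not given in the sources used here). bcl2fastq and mm10 are named in the submitters' processing notes. The authors' deposited sample sheet gives genotype, treatment, sex and a replicate number (a plain number, unit other) for each well, and was the only source of the group of a well, since each GEO label covers all groups.

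Barcodes were kept by the study's filter for nuclei (more than 300 transcripts, more than 400 genes, under 50000 transcripts, under 1% mitochondrial). Doublets (1253) were removed at a Scrublet score of 0.25 set after the scores were seen, in place of the caller's own threshold. Nuclei were clustered with scanpy 1.11.5 and leidenalg 0.10.2 (2000 variable genes, 30 components, resolution 1.5), and clusters were named from marker lists, with score limits set after the clusters were seen. Counts were summed per well and type. Groups and sexes were compared with edgeR 4.0.16 (R 4.3.3) by glmQLFit and glmQLFTest, with TMM factors, filterByExpr, 4 groups and sex in 1 fit, wells of at least 10 nuclei, and Benjamini-Hochberg adjustment over all genes of a type and contrast. SE was derived from the F statistic. DESeq2 1.42.0 was an alternative. Types were compared within wells with numpy 2.4.6 and scipy 1.17.1 (100000 resamples with 10 or more wells, exact below). On simulated counts the edgeR step recovered 85% of genes changed 2-fold (log2 of 1) in neurons, 70% in astrocytes, 62% in oligodendrocytes and 35% in microglia.

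The genes described are the 3 members in every type and group, the complement lists, the neuronal marker list and the list of long neuronal genes. The members and lists were chosen with earlier results of these data known. The replicate numbers were not used to pair the wells in the main fits. Alternatives covered the scaling, test, filters, covariate, naming of nuclei, doublets, and each well or sublibrary left out. No sequence of the 3 genes is printed.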

Additional observations from a re-analysis of the deposited data

Results flagged for a closer look

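Among 108 groups of 4 to 6 wells examined for a well far from the others, 10 had one, where chance gives about 1 in 20 groups, or 5.4. The measure is the gap to the nearest other well divided by the range of the group.

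For Csmd1, the astrocytes of WT-veh F3 had a gap of 0.810 of the range (1752 CPM, others 569 to 793), and the oligodendrocytes of Arc-PMX M2 a gap of 0.719 (596 CPM, others 172 to 291). For Csmd2, the astrocytes of WT-veh F3 had a gap of 0.642 (178 CPM, others 48.3 to 94.8) and those of Arc-veh M3 a gap of 0.634 (177 CPM, others 86.5 to 120). The microglia of WT-veh M1 were the only ones of their group with a Csmd2 transcript, a gap of 1.0 (91.2 CPM, others at 0). For Csmd3, the other neurons of WT-veh F2 (0.638, 1598 CPM, others 1334 to 1430) and of Arc-veh M2 (0.716, 1858 CPM, others 1265 to 1434) lay above their groups, and so did the astrocytes of Arc-PMX M2 (0.783, 177 CPM, others 62.6 to 87.5). The OPCs of WT-veh F3 (0.737, 2762 CPM, others 3115 to 3240) and of Arc-veh F2 (0.692, 2603 CPM, others 3013 to 3196) lay below theirs.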

How the results depend on the processing

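The limits are few wells, few nuclei of a type per well and names rebuilt from markers. Values are log2 differences unless a count is named, and where a call was lost the cause was not tested. Csmd1 in astrocytes was past the threshold in all fits that left out 1 well (1.05 to 1.41 on water, 1.48 to 1.65 on PMX205), and Csmd2 in oligodendrocytes too (0.88 to 1.02 and 0.85 to 1.02). Csmd3 in microglia was so on water (-0.94 to -0.71), but on PMX205 in 11 of 21 fits (-0.53 to -0.37). For sex, Csmd1 in microglia was past it in 21 of 21 (0.90 to 1.22) and Csmd3 in 16 of 21 (-0.46 to -0.35, not called without Arc-PMX F3, Arc-PMX M3, Arc-veh F2, Arc-veh M1 or Arc-veh M2). The members called for sex numbered 1 to 4 without 1 well, 4 of them without Arc-PMX F1 and 1 without any of those 5 wells.

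Within clusters and without clusters 11 and 29 (chosen after the data were seen), Csmd1 in astrocytes changed sign in cluster 3 on water (-0.049) and was not called there on PMX205 (0.22), nor on water in cluster 21 (0.59) or without cluster 11 (0.38). Csmd2 in oligodendrocytes was not called in cluster 12 (0.41 on water, 0.0153 on PMX205), in cluster 4 on water (0.70), or without cluster 29 (0.56 and 0.50).

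With each nucleus named by its own highest marker score, Csmd2 in oligodendrocytes (0.48 and 0.52), Csmd3 in microglia (-0.19 in both arms) and the sex differences of Csmd1 (0.0285) and Csmd3 (-0.33) in microglia were not called, and 1 member was called on PMX205 instead of 3. Csmd3 in microglia on PMX205 was also not called with no covariate (-0.52), no filter (-0.0699, where the median of all genes was 0.45), over 500 transcripts (-0.46), or without sublibrary 1 (-0.46), 3 (-0.33) or 5 (-0.41). Csmd1 in microglia by sex was not called with DESeq2 (0.89), doublets kept (0.83), marker-bearing nuclei left out (0.13), or without sublibrary 1 (0.72) or 5 (0.81). Csmd3 in microglia by sex was not called with at least 30 nuclei (-0.40), doublets kept (-0.39), marker-bearing nuclei left out (-0.39), or without sublibrary 1 (-0.36), 2 (-0.36), 3 (-0.38) or 5 (-0.39).

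With no filter on low counts, 1 member was called in Arc-PMX against Arc-veh, Csmd3 in interneurons (0.47, edgeR adjusted p = 0.0401). Fits within single interneuron clusters were run with the filter only. Neighbouring types that differed numbered 8 for Csmd1, and 5 with TMM factors over types, with names by own score and with marker-bearing nuclei left out. For Csmd2 they numbered 3, and 6, 6 and 5 with TMM factors, own score and doublets kept. Names by own score left out the class of other neurons.

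The replicate numbers were not used to pair the wells in the main fits. Of 28 to 36 pairs of the same number in a type, 3 to 11 were correlated above 0.1. The median correlation was -0.014 to 0.044 for the same number and -0.028 to -0.0004 for other numbers. It was higher for the same number in each type but microglia, and whether this is a weak pairing was not tested. With the number as a replicate block, Csmd3 in microglia on PMX205 was not called (-0.47, adjusted p = 0.0569), and 4 members were called on water instead of 3, the added one being Csmd3 in astrocytes (-0.60). Of 6679 alternative values of members not called, 14 were past the threshold, and 486 sign changes in 97 results, with neither value called, were not counted as reversals. Relative log expression factors moved the median of all genes by at most 0.073.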

Other observations

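The CD11b-selected single cells, which were pooled from several mice per well and not compared with nuclei by a test, held Csmd3 as well. These cells were neither clustered nor named, and doublets were not removed. Their values can therefore include cells other than microglia, unlike those of the named nuclei. They rest on 6 wells in each group except WT-PMX, which had 4. Pooled over the wells of a group, the level of Csmd3 was 1973 CPM in WT-veh (488 cells), 2002 in WT-PMX (522 cells), 2688 in Arc-veh (1712 cells) and 1993 in Arc-PMX (1098 cells), with wells from 879 to 3349 CPM. The medians over wells were 1782, 1961, 1917 and 2179 CPM in the same order, so that the pooled values rest more on deep wells. Lower Csmd3 in Arc, the direction in microglial nuclei, was seen neither in the medians nor in the pooled values, apart from a pooled 1993 against 2002 CPM on PMX205. The medians of Csmd1 in these cells were 632, 346, 214 and 384 CPM, and of Csmd2 63.5, 73.3, 18.7 and 21.8 CPM.

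Barcodes with fewer than 100 transcripts, taken here as the pool of free RNA, carried 4826 to 6400 CPM of Csmd1, 527 to 960 of Csmd2 and 1136 to 1884 of Csmd3 over the 24 nuclei wells. Whether they also hold shallow or damaged nuclei was not tested.

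The unnamed cluster 17, with markers of microglia and oligodendrocytes, held 3017 ± 799 CPM of Csmd1, 521 ± 93.6 of Csmd2 and 2254 ± 346 of Csmd3 over 23 wells. The unnamed cluster 32, led by Ebf2, had a pooled Csmd3 level of 3141 CPM in 185 nuclei, and cluster 26 of the other neurons, led by Il1rapl2 and Cpa6, a pooled Csmd1 level of 12892 CPM in 447 nuclei. These clusters were named here after their values were seen.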
